A study of Mus musculus with 24 samples.

Results

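Drug handling in the gut wall was followed through 9 genes of the 21441 listed in the deposited tables. They were taken by name, with no filter on their values but with earlier results of these data known. Cyp3a11, Cyp3a13, Cyp3a25 and Cyp3a44 encode cytochrome P450 enzymes of the Cyp3a family, and Cyp2c55 encodes an enzyme of the Cyp2c family. Abcb1a and Abcg2 encode efflux pumps that carry drugs out of cells. Nr1i2 (the pregnane X receptor, PXR) and Nr1i3 (the constitutive androstane receptor, CAR) encode nuclear receptors that sense foreign compounds. All 9 were listed in every table.

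Cytochrome P450 enzymes of the Cyp3a family oxidise a wide range of drugs, steroids and bile acids, and in the gut they act on swallowed compounds before these reach the blood. P-glycoprotein, the product of Abcb1a, and BCRP, the product of Abcg2, sit in the apical membrane of enterocytes and return compounds to the lumen. PXR and CAR bind DNA together with the retinoid X receptor and raise the transcription of Cyp3a, Cyp2b and Cyp2c genes in liver and intestine. The vitamin D receptor pairs with the same partner, and in human intestinal cells it is known to act on CYP3A4.

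The treated group, labelled 3xD, consisted of wild-type C57BL6J mice that received 1,25D3 (calcitriol, the hormone form of vitamin D) in 3 injections of 1 ng per g body weight, 48, 24 and 6 h before termination. The minusD group consisted of vitamin D-deficient wild-type mice of the same strain, for which no treatment is given in the labels. Per the labels the 3xD group held 2 females and 2 males aged 10 to 14, and the minusD group 1 female and 3 males aged 10 to 13, with no unit for age. Poly(A) RNA of the duodenum, ileum and colon was sequenced, with 4 3xD libraries per region, against 4 minusD libraries in the duodenum, 3 in the ileum and 4 in the colon. The design asks which genes answer to 1,25D3 in the proximal and in the distal intestine.

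Values are FPKM, fragments scaled by transcript length and by the number of mapped fragments, so levels can be set beside each other between genes. Libraries are named here by their columns. The 3xD columns are 3xD_1, 3xD5711, 3xD5720 and 3xD5734, and the minusD columns are minusD5718, Vehicle_1, Vehicle_2 and Vehicle_3, of which minusD5718 was not used in the ileum. Whole reads could be recovered from the steps between FPKM values for part of the genes. Summed over those genes, they came to 26148974 to 52837708 in duodenal, 20421818 to 45985172 in ileal and 15984626 to 34147364 in colonic libraries. These are partial sums and not library sizes. Cyp24a1, the calcitriol-degrading enzyme used as a check of treatment, averaged 346 ± 236 FPKM in 3xD and 0.114 ± 0.203 FPKM in minusD duodena (SD, n = 4 each, limma adjusted p = 0.0034), and the calcium binder S100g 9133 ± 4023 and 2144 ± 1612 FPKM (limma adjusted p = 0.499). The 3xD and minusD libraries of Cyp24a1 were also fully apart in the ileum (149 ± 263, n = 4, and 0.065 ± 0.0761 FPKM, n = 3, limma adjusted p = 0.706) and the colon (189 ± 165 and 0.0303 ± 0.0343 FPKM, n = 4 each, limma adjusted p = 0.456). Most of the ileal 3xD mean came from 3xD5720, with 543 FPKM against 5.34 to 40.3 FPKM in the other 3xD libraries. The column numbers follow 2 schemes that nearly coincide with treatment. In the duodenum and colon, 3 of 4 libraries with 4-digit numbers are 3xD, and 3 of 4 with serial numbers are minusD. In the ileum, all 3 libraries with 4-digit numbers are 3xD, and 3xD_1 is the only 3xD library with a serial number. In the duodenum the summed level of 8 stomach genes went with the schemes, at 6251 to 12369 FPKM in the 4-digit and 40.4 to 215 FPKM in the serial libraries. Summed recovered reads also did, at 26148974 to 31994063 in the 4-digit and 32639554 to 52837708 in the serial duodenal libraries. In the colon they were 15984626 to 23712716 and 32194231 to 34147364. In the ileum the ranges overlapped through 3xD5720 (37958900), while 3xD5711 and 3xD5734 (20421818 and 21857503) lay below the serial libraries (26956102 to 45985172). Reads per FPKM of Cyp3a11 were nevertheless fewer in every 4-digit than in every serial ileal library. For Cyp3a13, 3xD5720 had 21576 reads at 519 FPKM and Vehicle_1 18622 reads at 279 FPKM. In the ileum, 3xD5720 stood apart with the lowest summed level of 11 enterocyte genes, 13392 FPKM against 23308 to 34323 in the other 6 libraries, and the highest of 7 colonocyte genes, 3331 against 125 to 798 FPKM. The colonocyte genes did not all follow that sum. Car1 was 6.66 FPKM in 3xD5720 and 0.522 to 34.7 FPKM in the other ileal libraries. Hoxb13 was under 1 FPKM in every ileal library.

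In the NCBIM37 assembly, Cyp3a44 (chr5:146585559-146617450), Cyp3a11 (chr5:146666002-146691540) and Cyp3a25 (chr5:146788770-146821194) lie on the minus strand in one cluster of 8 Cyp3a genes that spans 819 kb. Cyp3a13 (chr5:138334160-138362847, minus strand) lies 7743 kb from that cluster. Cyp2c55 occupies chr19:39081509-39117183, Abcb1a chr5:8660077-8748575, Abcg2 chr6:58534517-58642863 and Nr1i3 chr1:173144101-173150832, all on the plus strand, and Nr1i2 chr16:38248409-38294910 on the minus strand.

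The coding sequences show how far the 4 Cyp3a members can be told apart by sequence. Cyp3a11 and Cyp3a44 were 94.9% identical over their 1515 coding bases, whereas Cyp3a11 was 76.4% identical to Cyp3a13 and 76.0% to Cyp3a25. The loop around the cysteine that holds the heme iron is the hallmark of these enzymes and is printed here for each, from bases 1294 to 1347 of the Cyp3a11 and Cyp3a44 coding sequences and 1291 to 1344 of the others (gencode vM1 transcripts, NCBIM37). Capitals mark bases that differ from Cyp3a11.
Cyp3a11 loop: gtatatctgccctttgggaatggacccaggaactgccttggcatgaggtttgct
Cyp3a44 loop: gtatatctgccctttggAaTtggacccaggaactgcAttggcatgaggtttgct
Cyp3a25 loop: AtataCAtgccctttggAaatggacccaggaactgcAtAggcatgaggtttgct
Cyp3a13 loop: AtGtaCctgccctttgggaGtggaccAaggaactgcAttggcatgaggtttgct
Over these 54 bases Cyp3a44 differed from Cyp3a11 at 3 positions, and Cyp3a25 and Cyp3a13 at 6 positions each. Of all 31-base words in the transcripts of a gene, 32.4% of those of Cyp3a11, 37.9% of Cyp3a44 and 47.0% of Cyp3a25 also occurred in another of the Cyp3a genes, against 0.137% of Cyp3a13. For Cyp3a25 most of the shared words were those of Cyp3a59 (42.6% of its words). The values of Cyp3a11, Cyp3a44 and Cyp3a25 are therefore uncertain as far as the authors' counting could split reads between copies, and the sources used here do not state how it did.

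The promoters of the 4 Cyp3a members, Cyp3a11, Cyp3a25, Cyp3a44 and Cyp3a13, are shown (RefSeq, GRCm38.p6, 250 bases before to 50 after the start). Promoters of all 9 genes were found in that table. Capitals mark the 6-base words AGGTCA and AGTTCA on either strand, the core words to which PXR, CAR and the vitamin D receptor bind with their partner.
Cyp3a11 promoter, chr5:145879805-145880104, minus strand: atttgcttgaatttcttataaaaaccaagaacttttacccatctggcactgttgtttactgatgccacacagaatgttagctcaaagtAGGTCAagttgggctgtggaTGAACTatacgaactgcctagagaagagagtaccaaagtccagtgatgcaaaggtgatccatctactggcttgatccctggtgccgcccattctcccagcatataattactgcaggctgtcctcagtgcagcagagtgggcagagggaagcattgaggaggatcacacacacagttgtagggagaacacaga
Cyp3a25 promoter, chr5:146009569-146009868, minus strand: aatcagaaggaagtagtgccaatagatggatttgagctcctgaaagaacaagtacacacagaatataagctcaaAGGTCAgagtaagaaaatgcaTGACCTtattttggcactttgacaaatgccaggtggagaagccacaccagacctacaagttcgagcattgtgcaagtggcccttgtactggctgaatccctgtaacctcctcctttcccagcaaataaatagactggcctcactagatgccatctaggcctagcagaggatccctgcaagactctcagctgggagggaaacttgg
Cyp3a44 promoter, chr5:145805825-145806124, minus strand: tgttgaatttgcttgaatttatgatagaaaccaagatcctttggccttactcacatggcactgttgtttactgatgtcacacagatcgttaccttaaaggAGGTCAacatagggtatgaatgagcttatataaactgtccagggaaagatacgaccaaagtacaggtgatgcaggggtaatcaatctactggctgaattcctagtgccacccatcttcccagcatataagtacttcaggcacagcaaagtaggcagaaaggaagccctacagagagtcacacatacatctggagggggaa
Cyp3a13 promoter, chr5:137921570-137921869, minus strand: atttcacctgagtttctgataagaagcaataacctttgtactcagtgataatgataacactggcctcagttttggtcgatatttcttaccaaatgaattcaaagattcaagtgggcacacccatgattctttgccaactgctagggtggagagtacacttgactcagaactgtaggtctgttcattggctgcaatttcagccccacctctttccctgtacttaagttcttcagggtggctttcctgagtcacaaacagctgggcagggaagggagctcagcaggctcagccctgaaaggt
Cyp3a11 held AGGTCA at -162 and AGTTCA on the opposite strand at -142, counted from the start. Cyp3a25 held AGGTCA at -176 and, on the opposite strand, at -155, and Cyp3a44 held it at -150. The Cyp3a13 window held neither word, nor did those of Cyp2c55, Nr1i2 and Nr1i3, while the Abcb1a window held 1 and 2 of the 3 windows of Abcg2 held AGGTCA. Either word occurred in 27.7% of 32851 RefSeq mouse promoters of this length, AGGTCA in 16.3% and AGTTCA in 14.0%. None of the windows of the 9 genes held a direct repeat of the words spaced by 3 or 4 bases, or an everted repeat (TGACCT or TGAACT, 6 bases, then AGGTCA or AGTTCA), which 0.0122%, 0.0274% and 0.00913% of all promoters held. A match describes the letters of these windows only.

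Cyp3a11 and Cyp3a13 stepped down at each step from the duodenum to the colon, Cyp3a25 was low in the colon only, and Cyp2c55 was high in the colon only. Cyp3a11 averaged 609.8 ± 321 FPKM in the duodenum, 34.0 ± 15.5 in the ileum and 1.81 ± 1.70 in the colon (SD, n = 8, 7 and 8), and Cyp2c55 averaged 11.9 ± 9.04, 16.6 ± 11.4 and 554 ± 424 FPKM. Regional levels are described with no test, because each region's table was normalised on its own. On the scale of log2(FPKM + 1), the median difference of all 13390 genes past the filter was -0.16 for duodenum minus ileum, -0.39 for duodenum minus colon and -0.25 for ileum minus colon, and the members' differences are to be read against these shifts. In bulk tissue, fewer cells of a type and less RNA per cell cannot be told apart.

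**Figure D1:**
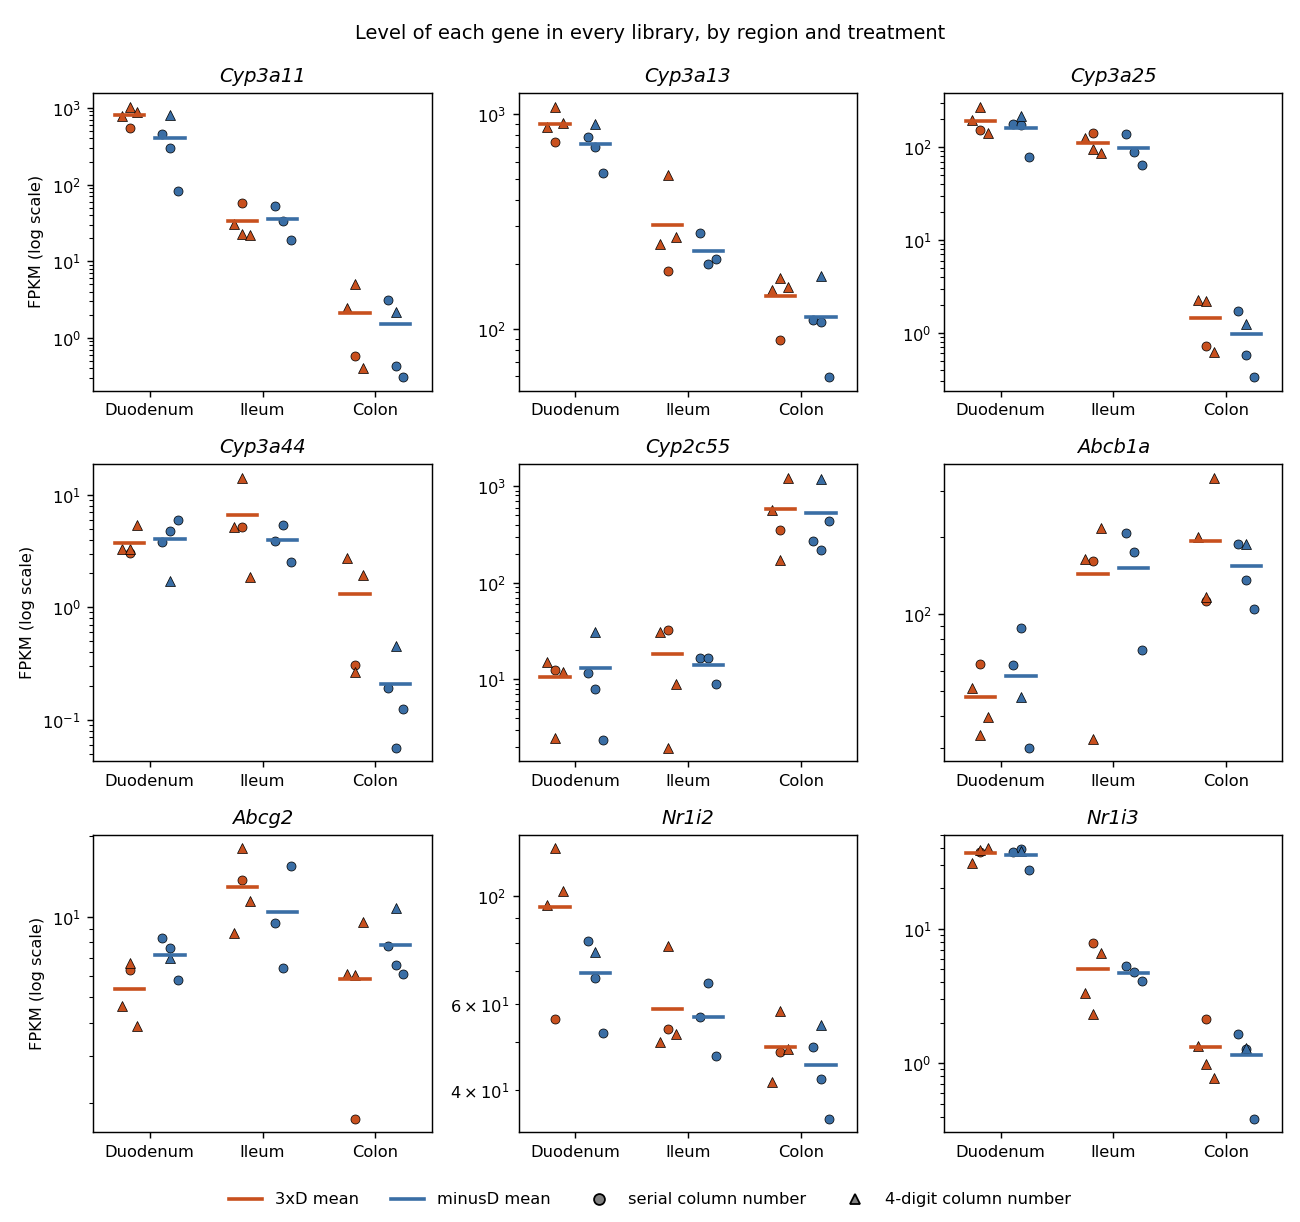
FPKM of each of the 9 genes (log axis, own scale per panel) in every library of the duodenum, ileum and colon, with 3xD left of minusD. Points are libraries (circles, serial column numbers; triangles, 4-digit numbers) and bars are group means. Cyp3a11 spanned 83.0 to 1037 FPKM in the duodenum and 0.307 to 5.01 FPKM in the colon, and Cyp2c55 had its highest values in the colon.

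Cyp3a11, the main drug-oxidising Cyp3a enzyme of mouse liver, ranged from 83.0 to 1037 FPKM with a median of 667 in the duodenum, from 19.1 to 57.5 with a median of 30.2 in the ileum, and from 0.307 to 5.01 with a median of 1.37 in the colon. The libraries of any pair of regions did not overlap. Its mean was 17.9 times higher in the duodenum than in the ileum and 18.8 times higher in the ileum than in the colon, where it rested on 14 to 173 recovered reads per library. In the colon the highest value, 5.01 FPKM, came from 3xD5720, which there also had 468 FPKM summed over 11 liver genes (6.66 to 28.4 in the other 7 libraries) and 28431 FPKM summed over 9 pancreatic genes (137 to 5480 in the others). The part of these in the Cyp3a11 value was not tested.

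Cyp3a13, a Cyp3a enzyme encoded outside the cluster, was the most abundant of the 4 in each region by mean level, at 814 ± 167 FPKM in the duodenum, 273 ± 114 in the ileum and 128 ± 42.6 in the colon. Its library ranges were 529 to 1082, 186 to 519 and 59.6 to 176 FPKM, and no pair of regions overlapped. The drop was shallower than that of Cyp3a11, with means 2.99 times higher in the duodenum than in the ileum and 2.13 times higher in the ileum than in the colon.

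Cyp3a25 averaged 176 ± 57.2 FPKM in the duodenum, 106 ± 30.0 in the ileum and 1.21 ± 0.769 in the colon. Libraries of the duodenum (77.6 to 273 FPKM) and ileum (63.6 to 142) overlapped, and the colon (0.334 to 2.26) lay below both. The mean was 87.2 times higher in the ileum than in the colon, a steeper step there than that of Cyp3a11. Cyp3a44, known in mouse liver as a female-predominant Cyp3a enzyme, averaged 3.91 ± 1.39, 5.46 ± 4.09 and 0.762 ± 1.01 FPKM, and its regions overlapped pairwise. In the colon it rested on 3 to 79 recovered reads per library and did not pass the filter on low values.

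Summed over the 4 Cyp3a genes, mean levels came to 1604 FPKM in the duodenum, 418 in the ileum and 132 in the colon. The make-up of that sum differed by region. In the duodenum Cyp3a13 made up 50.8% of it, Cyp3a11 38.0% and Cyp3a25 11%, while in the ileum Cyp3a13 made up 65.2%, Cyp3a25 25.3% and Cyp3a11 8.13%. In the colon 97.1% of the summed level was Cyp3a13, with 95.3% to 99% in single libraries. The other Cyp3a genes of the cluster in the tables, Cyp3a16, Cyp3a41a, Cyp3a57 and Cyp3a59, averaged under 1 FPKM in every region, the highest being Cyp3a59 with 0.589 ± 0.197 FPKM in the duodenum.

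Cyp2c55, a Cyp2c enzyme that in mouse acts on arachidonic acid, ranged from 2.35 to 31 FPKM with a median of 11.8 in the duodenum, from 1.96 to 32.4 with a median of 16.6 in the ileum, and from 173 to 1226 with a median of 391 in the colon. The colon lay above both other regions in every library, with a mean 46.6 times that of the duodenum and 33.3 times that of the ileum. The duodenum and ileum overlapped.

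Of the pumps, Abcb1a averaged 52.3 ± 19.2 FPKM in the duodenum, 147 ± 68.5 in the ileum and 173 ± 77.5 in the colon. Its libraries spanned 30.1 to 88.5, 32.7 to 216 and 105 to 339.8 FPKM, so the duodenum and colon did not overlap, and the ileum overlapped both. Within the ileum, 3xD5720 gave the value of 32.7 FPKM and the other 6 libraries 72.5 to 216. Its close copy Abcb1b averaged 0.370 ± 0.110, 0.756 ± 0.202 and 0.744 ± 0.227 FPKM, so nearly all RNA listed for the pair was that of Abcb1a. Abcg2 averaged 6.28 ± 1.48, 11.9 ± 4.07 and 6.82 ± 2.71 FPKM, and its regions overlapped pairwise. The sign of its duodenum minus colon difference depended on scaling, at -0.03 on the log2 scale as deposited, 0.36 after joint median-ratio scaling and 0.44 after joint quantile scaling.

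Of the receptors, Nr1i3 stepped down along the gut, at 36.1 ± 4.42 FPKM in the duodenum, 4.89 ± 1.90 in the ileum and 1.23 ± 0.533 in the colon, with no overlap between any pair of regions (27.5 to 39.7, 2.32 to 7.87 and 0.386 to 2.13 FPKM). Its mean was 7.39 times higher in the duodenum than in the ileum and 3.98 times higher in the ileum than in the colon. Nr1i2 stayed within a narrow range, at 82.0 ± 24.5, 57.6 ± 11.2 and 47.0 ± 7.37 FPKM, and every pair of regions overlapped.

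Counted over the 9 genes, the duodenum and ileum did not overlap for 3 (Cyp3a11, Cyp3a13 and Nr1i3), each higher in the duodenum, against 15.2% of all 13390 genes, with 4.6% of all genes higher in the duodenum. Between the duodenum and colon 6 of 9 were apart, 4 of them higher in the duodenum, against 36.6% of all genes, with 7.21% of all genes higher and 29.4% lower in the duodenum. The ileum and colon were apart for 5 of 9, 4 of them higher in the ileum, against 21.8% of all genes, with 5.32% higher and 16.5% lower in the ileum. Apart from Abcg2 between duodenum and colon, each member kept the sign of its regional difference under joint median-ratio and joint quantile scaling.

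The order of levels within a region changed with the gut segment. In the duodenum it ran Cyp3a13, Cyp3a11, Cyp3a25, Nr1i2, Abcb1a, Nr1i3, Cyp2c55, Abcg2 and Cyp3a44 by mean FPKM. The ileum had Cyp3a13, Abcb1a, Cyp3a25, Nr1i2, Cyp3a11, Cyp2c55, Abcg2, Cyp3a44 and Nr1i3, and the colon Cyp2c55, Abcb1a, Cyp3a13, Nr1i2, Abcg2, Cyp3a11, Nr1i3, Cyp3a25 and Cyp3a44. Neighbours in these orders overlapped in their library ranges throughout the duodenum and ileum. In the colon Nr1i2 (34.9 to 58.0 FPKM) lay below its neighbour Cyp3a13 (59.6 to 176 FPKM) and above its neighbour Abcg2 (1.75 to 10.8 FPKM) without overlap, and the other neighbours overlapped.

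By 1,25D3 treatment, none of the 9 genes was called at an adjusted p under 0.05 in any region, and the 3xD and minusD libraries overlapped for each of them in each region. Cyp3a11 in the duodenum came nearest, with 811 ± 202 FPKM in 3xD and 408 ± 303 FPKM in minusD mice (SD, n = 4 each), and its difference did not pass after adjustment over all genes. Few genes of any kind passed: 3 of 11734 in the duodenum (0.0256%), of which 1 was higher in 3xD (Cyp24a1, 0.00852% of genes) and 2 were lower (Ap1g1 and BC023829, 0.017%), 0 of 12149 in the ileum (0%) and 0 of 12746 in the colon (0%) by limma. With the column number, which the regions share, as a replicate block in one fit over the regions, 0 genes passed in the duodenum and 5 in the colon, and none of the 9. At an unadjusted p under 0.05 the shares were 9.4%, 5.84% and 5.85% of all genes, and of the 9 genes 1 in the duodenum (Cyp3a11), 0 in the ileum and 0 in the colon. Groups did not overlap for 4.37%, 6.56% and 4.54% of all genes, and for 0 of the members.

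Single libraries show the spread behind the Cyp3a11 values. In the duodenum the 3xD libraries held 553 (3xD_1), 781 (3xD5711), 1037 (3xD5720) and 875 FPKM (3xD5734), against 801 (minusD5718), 452 (Vehicle_1), 296 (Vehicle_2) and 83.0 FPKM (Vehicle_3) in minusD. All 3 Vehicle libraries lay below all 3xD libraries, and minusD5718 lay among the 3xD values, so the groups overlapped. The log2 difference of 3xD minus minusD was 1.36 ± 0.59 (SE), with a 95% interval of 0.01 to 2.71 and an adjusted p of 0.528 by limma (unadjusted p = 0.0481). Without Vehicle_3 it was 0.73, and without minusD5718 it was 1.82, with limma adjusted p of 0.289 and 0.533.

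The naming schemes cut across this comparison. Every 4-digit library, the deficient minusD5718 included, held more Cyp3a11 (781 to 1037 FPKM) than every serial library (83.0 to 553), and the same held for Cyp3a13. Of all 11734 genes tested in the duodenum, 7.44% were apart between the schemes in one direction or the other. Within the serial libraries the Cyp3a11 log2 difference was 1.30 (1 3xD against 3 minusD) and within the 4-digit libraries 0.15 (3 against 1), with too few libraries for a test. Treatment and scheme, with the stomach genes and summed recovered reads that go with it, cannot be told apart for most libraries. The sex-linked RNAs given below largely go with the scheme too.

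In the ileum Cyp3a11 reached 57.5 (3xD_1), 30.2 (3xD5711), 22.4 (3xD5720) and 21.8 FPKM (3xD5734) in 3xD, against 53.2, 33.7 and 19.1 FPKM in Vehicle_1, Vehicle_2 and Vehicle_3. The high serial libraries of both groups reached about the same level. The log2 difference was -0.10 ± 0.41 (95% interval -1.04 to 0.85, limma adjusted p = 0.941). In the colon its log2 difference was 0.22 ± 0.54, with an interval of -1.0 to 1.44.

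**Figure D2:**
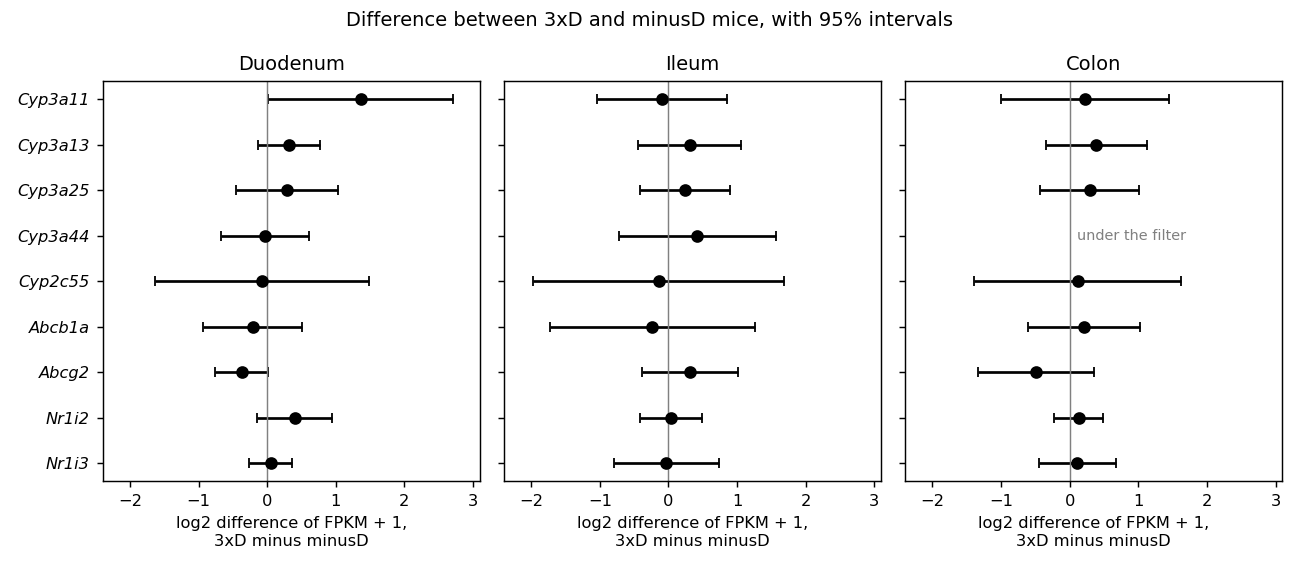
Log2 difference of FPKM + 1, 3xD minus minusD (x axis), of the 9 genes (rows) in the duodenum, ileum and colon. Points are limma estimates and bars their 95% intervals. That of Cyp3a11 in the duodenum ran from 0.01 to 2.71, all other intervals reached 0, and Cyp3a44 did not pass the filter in the colon.

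Cyp3a13 averaged 901 ± 142 FPKM in 3xD and 727 ± 156 FPKM in minusD duodena. Its 3xD libraries held 738 (3xD_1), 872 (3xD5711), 1082 (3xD5720) and 912 FPKM (3xD5734), against 902 (minusD5718), 779 (Vehicle_1), 699.7 (Vehicle_2) and 529 FPKM (Vehicle_3). The 8 libraries stood in the same order as for Cyp3a11, except that 3xD_1 and Vehicle_1 changed places. The log2 difference was 0.32 ± 0.20 in the duodenum, 0.31 ± 0.33 in the ileum and 0.38 ± 0.33 in the colon, with limma adjusted p of 0.593, 0.759 and 0.909. In the colon every 4-digit library (152 to 176 FPKM) lay above every serial one (59.6 to 110.3), beside 13.3% of all genes apart between schemes. Within the schemes the colonic log2 difference was -0.011 among serial and -0.135 among 4-digit libraries. In the ileum the value of 519 FPKM in 3xD5720 stood above 186 to 267 FPKM in the other 3xD libraries and 201 to 279 FPKM in minusD, and without that library the log2 difference was 0.02.

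The ratio of Cyp3a11 to Cyp3a13 in the duodenum was 0.749 (3xD_1), 0.896 (3xD5711), 0.958 (3xD5720) and 0.959 (3xD5734) in 3xD, against 0.888 (minusD5718), 0.580 (Vehicle_1), 0.423 (Vehicle_2) and 0.157 (Vehicle_3) in minusD. It was lowest in the 3 Vehicle libraries, and minusD5718 again lay among the 3xD values. A ratio within a library shows unequal change of the genes and not which of them changed.

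**Figure D3:**
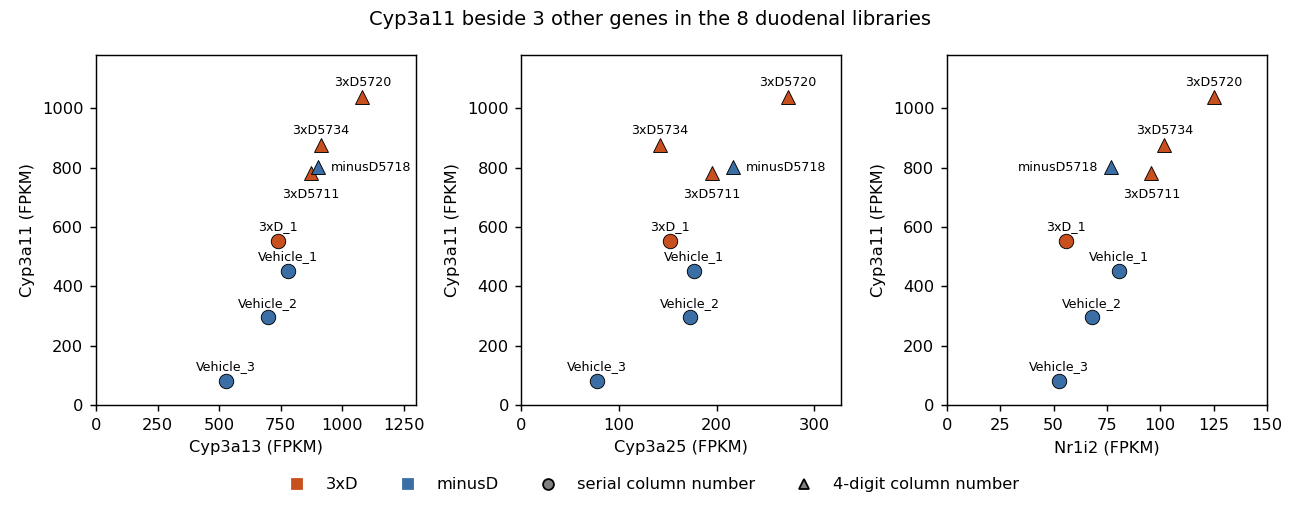
FPKM of Cyp3a11 (y axis) against FPKM of Cyp3a13, Cyp3a25 and Nr1i2 (x axes) in the 8 duodenal libraries, orange for 3xD and blue for minusD, circles for serial and triangles for 4-digit column numbers. Vehicle_3 was lowest and 3xD5720 highest for all 4 genes, and minusD5718 lay beside the 3xD libraries of the same scheme for Cyp3a11 and Cyp3a13.

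Cyp3a25 had 152, 195, 273 and 142 FPKM in 3xD_1, 3xD5711, 3xD5720 and 3xD5734 of the duodenum, against 217, 177, 173 and 77.6 FPKM in minusD5718, Vehicle_1, Vehicle_2 and Vehicle_3. The highest value was that of 3xD5720 and the lowest that of Vehicle_3, and the groups overlapped. Its log2 difference was 0.29 ± 0.33 in the duodenum, 0.24 ± 0.28 in the ileum and 0.29 ± 0.32 in the colon (limma adjusted p = 0.756, 0.774 and 0.923).

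For Cyp3a44 the duodenal 3xD libraries held 3.06, 3.27, 3.30 and 5.39 FPKM in 3xD_1, 3xD5711, 3xD5720 and 3xD5734, against 1.72, 3.79, 4.72 and 6.00 FPKM in minusD5718, Vehicle_1, Vehicle_2 and Vehicle_3. The library with the least Cyp3a11, Vehicle_3, had the most Cyp3a44, so the close copy did not follow Cyp3a11 there. Log2 differences were -0.03 ± 0.28 in the duodenum and 0.42 ± 0.50 in the ileum (limma adjusted p = 0.968 and 0.779). In the ileum 3xD5720 held 14.2 FPKM and the others 1.87 to 5.40, and without it the log2 difference was 0.00. In the colon, where the gene was under the filter, the values were 0.310, 2.76, 0.265 and 1.94 FPKM in 3xD_1, 3xD5711, 3xD5720 and 3xD5734, against 0.452, 0.191, 0.0565 and 0.126 FPKM in minusD5718, Vehicle_1, Vehicle_2 and Vehicle_3. The libraries 3xD5711 and 3xD5734 stood above all others there, on 79 and 65 reads.

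The labels do not say which column came from a female. Xist, the RNA of the inactive X chromosome, exceeded the Y-linked Ddx3y in 3xD5711, 3xD5720 and minusD5718 in each region where they were used, all of which carry 4-digit numbers. These are 2 of 4 3xD and 1 of 4 minusD libraries, the same numbers as the females in the labels. In the ileum, where minusD5718 was not used, the 2 such libraries were 3xD. In the duodenum 3xD5711, 3xD5720 and minusD5718 held 781, 1037 and 801 FPKM of Cyp3a11, and 3xD5734, where Ddx3y exceeded Xist, held 875 FPKM. The serial duodenal libraries held 83.0 to 553 FPKM. The part of sex in the values of Cyp3a44, Cyp3a11 and the other members was not tested, and sex and naming scheme largely coincide.

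Cyp2c55 in the colon held 350.4, 569, 173 and 1226 FPKM in 3xD_1, 3xD5711, 3xD5720 and 3xD5734, against 1196, 270.1, 219 and 432 FPKM in minusD5718, Vehicle_1, Vehicle_2 and Vehicle_3. One library of each group, both with 4-digit numbers, stood far above the rest, which lay between 173 and 569 FPKM. Those same libraries, 3xD5734 and minusD5718, had the highest summed level of 7 colonocyte genes, 10423 and 10800.1 FPKM against 4515 to 9492 in the other 6. The part of that in the Cyp2c55 values was not tested. The log2 difference was 0.12 ± 0.67, with a 95% interval of -1.39 to 1.62 (limma adjusted p = 0.984). In the duodenum and ileum it was -0.08 ± 0.69 and -0.14 ± 0.80, and leaving out 3xD5720 in the ileum gave 0.58.

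Abcb1a in the duodenum had 64.0, 51.7, 33.7 and 39.8 FPKM in 3xD_1, 3xD5711, 3xD5720 and 3xD5734, against 47.4, 63.5, 88.5 and 30.1 FPKM in minusD5718, Vehicle_1, Vehicle_2 and Vehicle_3. The highest and the lowest value both came from the minusD group. The log2 difference was -0.21 ± 0.32 in the duodenum, -0.24 ± 0.65 in the ileum and 0.21 ± 0.36 in the colon (limma adjusted p = 0.813, 0.909 and 0.948). Without 3xD5720, the ileal library low in enterocyte genes, the ileal value was 0.37.

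Abcg2 in the duodenum had 6.29, 4.62, 6.70 and 3.89 FPKM in 3xD_1, 3xD5711, 3xD5720 and 3xD5734, against 6.99, 8.30, 7.64 and 5.79 FPKM in minusD5718, Vehicle_1, Vehicle_2 and Vehicle_3. All minusD libraries but Vehicle_3 lay above all 3xD libraries, and Vehicle_3 stood among the 3xD values. With a log2 difference of -0.37 ± 0.17 and a 95% interval of -0.76 to 0.01 it did not pass (unadjusted p = 0.0558, limma adjusted p = 0.528). The value was -0.49 ± 0.38 in the colon and 0.32 ± 0.31 in the ileum. In the colon 3xD_1 held 1.75 FPKM, against 6.03 to 9.52 in the other 3xD and 6.09 to 10.8 FPKM in the minusD libraries, and without 3xD_1 the value was -0.10.

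Nr1i2 in the duodenum had 55.9, 95.9, 125 and 102 FPKM in 3xD_1, 3xD5711, 3xD5720 and 3xD5734, against 76.7, 80.8, 67.9 and 52.4 FPKM in minusD5718, Vehicle_1, Vehicle_2 and Vehicle_3. The 3 3xD libraries with 4-digit numbers lay above all minusD libraries, and 3xD_1 lay between Vehicle_3 and Vehicle_2. The log2 difference was 0.40 ± 0.24 (95% interval -0.15 to 0.95, limma adjusted p = 0.587), 0.04 ± 0.20 in the ileum and 0.13 ± 0.16 in the colon. Within the schemes it was -0.24 among serial and 0.47 among 4-digit duodenal libraries.

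Nr1i3 was the steadiest of the 9 in the duodenum, at 36.7 ± 3.87 FPKM in 3xD and 35.5 ± 5.46 FPKM in minusD mice. Its log2 difference was 0.05 ± 0.14 there (95% interval -0.26 to 0.36, limma adjusted p = 0.900), -0.03 ± 0.33 in the ileum and 0.11 ± 0.25 in the colon. The narrowest interval among the 9 genes in the duodenum, 0.62 wide, was that of Nr1i3, and the widest, 3.13, that of Cyp2c55.

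Low and high values were not spread evenly over the libraries. In the duodenum Vehicle_3 was the lowest library for 7 of 9 genes and the highest for Cyp3a44, while 3xD5720 was the highest for Cyp3a11, Cyp3a13, Cyp3a25 and Nr1i2. In the colon Vehicle_3 was the lowest for 6 of 9. The summed level of 11 enterocyte genes was also lowest in the duodenal Vehicle_3, at 29423 FPKM against 32296 to 42459 in the other 7 libraries, whereas in the colon it was 1340.4 FPKM, within the range of 928 to 1717 over all 8. Not every gene of that list followed the duodenal sum. Vil1 was 736 FPKM in duodenal Vehicle_3, within 656 (3xD5720) to 1026 FPKM (Vehicle_1) in the others. The part of enterocyte content in the low and high values of the 9 genes was not tested.

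**Figure D4:**
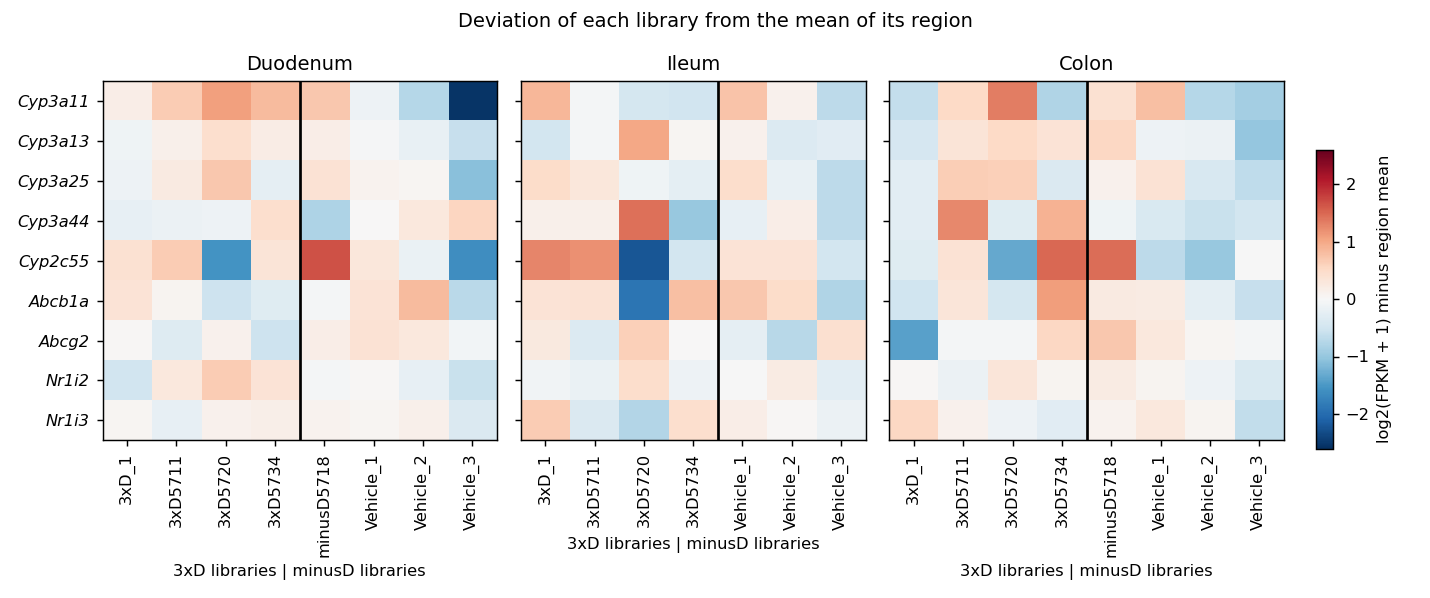
Log2(FPKM + 1) of each gene (rows) minus its mean over the libraries of a region, per library (columns, 3xD left of the black line and minusD right), red above and blue below the mean. The darkest blue cells are Cyp3a11 in duodenal Vehicle_3 (83.0 FPKM) and Cyp2c55 in ileal 3xD5720 (1.96 FPKM), and no gene is red on one side of the line and blue on the other throughout.

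Whether the 1,25D3 differences themselves differed between regions was tested in one fit over all 23 libraries. None of the 9 genes passed for any pair of regions, and 0 of 13390 genes passed for each pair (0%), by limma. At an unadjusted p under 0.05 it was 4.53% of genes for duodenum against ileum, 1.96% for duodenum against colon and 3.38% for ileum against colon. For Cyp3a11 the duodenal difference exceeded the ileal one by 1.46 ± 0.86 (95% interval -0.33 to 3.24, limma adjusted p = 0.865) and the colonic one by 1.14 ± 0.82 (-0.58 to 2.86, limma adjusted p = 1.00). For Abcg2 the ileal difference exceeded that of the colon by 0.80 ± 0.47 (-0.18 to 1.78, limma adjusted p = 0.971).

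Around these 9 genes, other genes of drug handling were read from 8 lists taken from general knowledge, with 124 genes in all. Only those past the filter on low values were tested, and 0 of the other Cyp3a genes were past it in any region. For 3xD against minusD, limma called none of the members tested, beside 0.0256%, 0% and 0% of all genes in the duodenum, ileum and colon. The list medians of the log2 differences lay between -0.52 (carboxylesterases in the ileum, 10 tested) and 0.30 (carboxylesterases in the colon, 9 tested), beside medians of all genes of 0.01, 0.01 and -0.01 in the duodenum, ileum and colon. For the other ABC efflux transporters, 0 of 6 tested genes had a positive difference in the duodenum, with a median of -0.31 and a lowest limma adjusted p of 0.597. Abcc2, the apical pump for conjugates and the most abundant of them, averaged 62.1 ± 12.2 FPKM in 3xD and 88.9 ± 41.6 FPKM in minusD duodena (limma adjusted p = 0.760). Cyp2b10, the classic target of CAR, averaged 169.8 ± 70.5 FPKM in 3xD and 122 ± 74.0 FPKM in minusD duodena (limma adjusted p = 0.674). The receptor of calcitriol, Vdr, averaged 91.9 ± 13.2 FPKM in 3xD and 118 ± 37.9 FPKM in minusD duodena (limma adjusted p = 0.665). In the ileum it averaged 74.8 ± 14.3 and 80.1 ± 19.4 FPKM (limma adjusted p = 0.896), and in the colon 119 ± 16.5 and 117 ± 28.2 FPKM (limma adjusted p = 0.976).

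By region the same lists held genes of both slopes. Of 8 Cyp2b and Cyp2c genes past the filter, 3 were higher and 1 lower in every duodenal than in every colonic library, beside 7.21% of all genes higher and 29.4% lower. Cyp2b10 averaged 146 ± 71.7 FPKM in the duodenum, 27.4 ± 23.1 in the ileum and 0.535 ± 0.596 in the colon, with overlap between the duodenum (11 to 248) and ileum (2.37 to 56.3), unlike Cyp3a11. Cyp2c65 was high at both ends, at 180.4 ± 77.4, 45.9 ± 10.7 and 156 ± 79.8 FPKM, and Cyp2c68 averaged 93.6 ± 27.7, 49.8 ± 20.4 and 50.9 ± 14.3 FPKM. Of 19 other drug oxidation genes, 7 were higher and 4 lower in the duodenum than in the colon. The electron donor Cyb5 (cytochrome b5) and its reductase Cyb5r3 were among the 7, at 524 ± 79.2, 305 ± 50.7 and 170.2 ± 21.9 FPKM for Cyb5 and 379 ± 82.6, 83.6 ± 26.3 and 64.2 ± 8.02 FPKM for Cyb5r3. Cyp2d26 was also among them, at 289 ± 77.8, 136 ± 63.6 and 71.1 ± 25.9 FPKM. Cyp2d34 was among the 4 lower ones, at 0.375 ± 0.323, 0.437 ± 0.339 and 184 ± 33.6 FPKM.

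Among 17 conjugation genes, 5 were higher and 2 lower in the duodenum than in the colon, and this count and those that follow are to be read beside the 7.21% and 29.4% of all genes. Papss2, which makes the sulfate donor, averaged 909.6 ± 152 FPKM in the duodenum, 34.3 ± 6.33 in the ileum and 115 ± 42.0 in the colon, while the sulfotransferase Sult1a1 averaged 10.5 ± 5.31, 11.3 ± 4.49 and 393 ± 109 FPKM. Sult2b1, another sulfotransferase, averaged 207 ± 35.1, 194 ± 27.1 and 37.0 ± 7.01 FPKM. The glucuronosyltransferase Ugt2b34 averaged 349.5 ± 135, 226 ± 64.5 and 236 ± 61.0 FPKM, and Ugdh, which makes the glucuronic acid donor, 222 ± 36.8, 101 ± 30.9 and 283 ± 102 FPKM. Of 7 other ABC efflux transporters, 2 were higher in the duodenum than in the colon (Abcc2 and Abcc6) and 3 lower, Abcc3 among them. The apical pump Abcc2 averaged 75.5 ± 31.8, 41.8 ± 18.5 and 1.09 ± 0.539 FPKM and the basolateral pump Abcc3 3.86 ± 1.45, 2.67 ± 1.72 and 15.9 ± 4.14 FPKM. Abcc6 averaged 8.84 ± 3.82, 4.66 ± 2.90 and 2.18 ± 0.614 FPKM, while Abcc5 and Abcc10 stayed between means of 6.45 and 7.74 FPKM in all regions. For uptake transporters it was 4 of 9 higher and 0 lower, with the peptide carrier Slc15a1 at 108 ± 14.0, 234 ± 80.5 and 35.3 ± 10.8 FPKM and Slc22a18 at 66.2 ± 9.82, 50.6 ± 10.2 and 71.6 ± 12.9 FPKM. Of 11 carboxylesterases 2 were higher and 1 lower, with Ces2e at 703 ± 81.2, 697 ± 74.0 and 222 ± 63.8 FPKM and Ces2c at 331 ± 115, 243 ± 83.5 and 376 ± 105 FPKM. Of 22 receptor partners and coregulators 3 were higher and 3 lower. Among these partners, Hnf4g averaged 161 ± 31.7 FPKM in the duodenum, 122 ± 25.1 in the ileum and 13.2 ± 3.61 in the colon, and Hnf4a 105 ± 20.8, 178 ± 32.2 and 147 ± 30.6 FPKM.

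**Figure D5:**
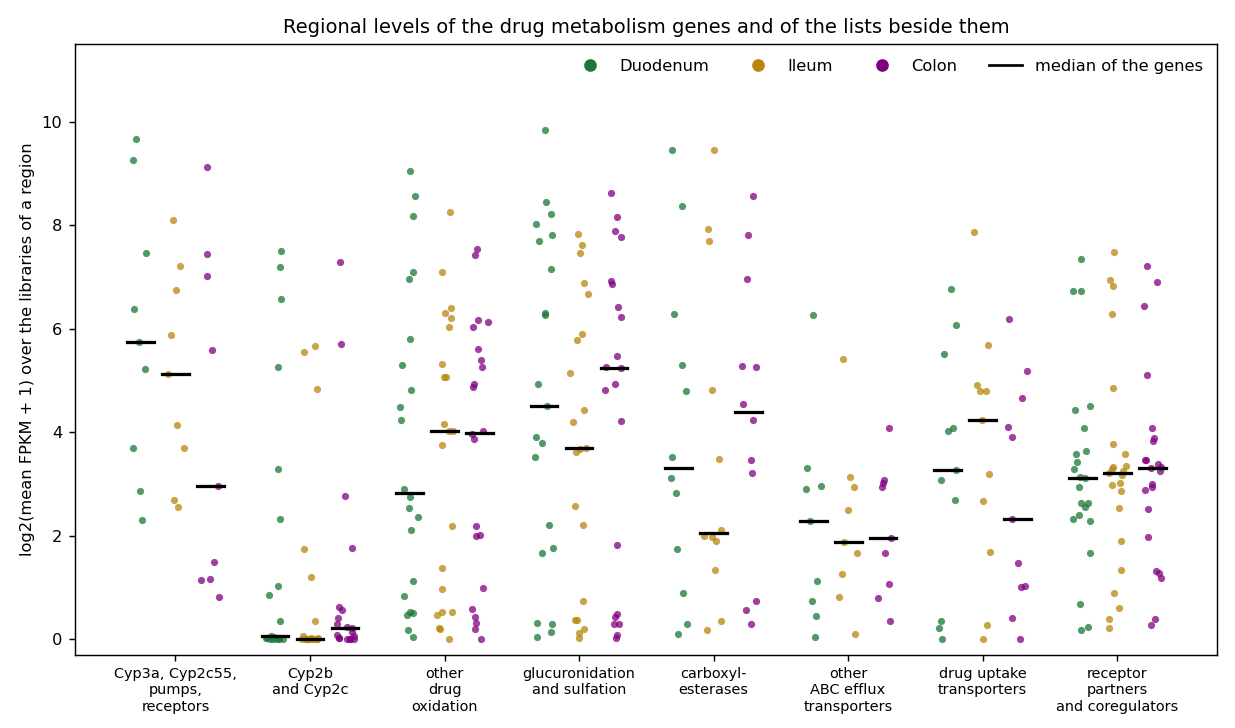
Mean level per gene on the scale of log2(mean FPKM + 1) (y axis) in the duodenum (green), ileum (ochre) and colon (purple), for the 9 genes at left and the lists of drug handling genes beside them. Points are genes and black bars medians. The colon median of the 9 genes lies below those of the duodenum and ileum.

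The genes whose regional pattern was most like that of each member were named by Pearson r of log2(FPKM + 1) over the 23 libraries, among 13390 genes. These libraries share their regions, so r mostly reflects steps between regions. For Cyp3a11 they were Alpi (0.973), the brush-border alkaline phosphatase, Slc27a2 (0.972) and Bco2 (0.970). Cyp3a13 had Slc39a14 (0.974), Gata6 (0.961) and Bco2 (0.958), and Cyp3a25 had Mttp (0.994), the lipid loader of chylomicrons, Slc7a15 (0.991) and 2010001E11Rik (0.988). Nr1i3 had Enpp3 (0.989), Gata4 (0.987) and Mdh2 (0.985), and Cyp2c55 had Mettl7b (0.964), Dym (0.958) and Hsd3b3 (0.957). The closest gene was Dclk3 for Abcb1a (0.909), N4bp2l1 for Nr1i2 (0.907), Vps26a for Abcg2 (0.848) and Tnfrsf1a for Cyp3a44 (0.845).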

How the data were processed

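Per the labels' protocols, poly(A) libraries came from a NEBNext Ultra II kit, and CLC Genomics Workbench did the mapping. DESeq 1.14.0, DESeq2, kallisto 0.45.0 and mm9 also stand in the submitters' processing notes, with no role given. The authors deposited FPKM for 21441 gene symbols a table, normalised within each region's table. The ileum table with 8 libraries equals that of the duodenum in 171528 of 171528 values, so its 8 columns were not used and the ileum was taken from its 7-library table. Columns named Vehicle were taken as minusD, because each table is named for minusD against 3xD. The labels do not tie column numbers to their replicates, so samples were not assigned a labelled sex or age, and p-values measure only the spread between these libraries.

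Per region, a gene was tested if 3 or more libraries reached 1 FPKM. The test was the two-sided one of limma 3.58.1 in R 4.3.3 (lmFit, then eBayes with a trend) on log2(FPKM + 1), with p-values adjusted by Benjamini-Hochberg over all genes and a threshold of 0.05. A fold on this scale understates changes of low genes. Interactions came from one fit of 6 group means over 23 libraries. Planned tests of levels between regions were not run, because the tables were normalised separately. Whole reads, within 0.0001 of a whole number, were recovered for 83.3%, 83.2% and 83.1% of the genes with values in at least 4 libraries in the duodenum, ileum and colon (13636, 13734 and 13980 genes). These did not include Cyp3a25 and Nr1i2. The tests were checked on simulated data. The 9 genes and the lists were chosen with earlier results of these data known. Named list genes are the 2 with the highest mean per region and any that passed, and Abcb1b and Cyp3a16 were added after their values were seen. The genes most alike were the 3 with the highest r. Alternatives covered the pseudocount (0.1 and 0.5), filter, scaling, each library left out, naming scheme as a covariate, array weights, voom on recovered reads, one fit over regions, the 7-library tables and a block on column number.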

Additional observations from a re-analysis of the deposited data

Results flagged for a closer look

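In 45 groups of 4 libraries, single values of the 9 genes were set against Dixon's 95% critical value of 0.829. By chance about 1 of 20 groups passes it. Here 2 groups passed, about as many as chance would give. In the 3xD duodena, Cyp3a44 was 5.39 FPKM in 3xD5734 and 3.06 to 3.30 FPKM in the other 3 libraries. In the 3xD ilea, Nr1i2 was 78.8 FPKM in 3xD5720 and 50 to 53.2 FPKM in the others. That ileal library also had the lowest summed level of enterocyte genes, 13392 FPKM, and the highest of colonocyte genes, 3331 FPKM. Its Car1, a colonocyte gene, did not follow that sum, at 6.66 FPKM against 34.7 FPKM in 3xD5711. The part of these sums in the Nr1i2 value was not tested.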

How the results depend on the processing

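None of the 9 genes passed in 496 values under other settings, the lowest limma adjusted p being 0.147 (Abcg2 in the duodenum with array weights). Counts over all genes were small and moved. In the duodenum, 3 genes passed, and 1 did with a pseudocount of 0.1, a mean of at least 1 FPKM, quantile scaling or the naming scheme as a covariate, against 0 with the replicate block and 1 to 4 with a library left out. In the ileum 0 passed, and 1 did without the filter and with voom. In the colon 0 passed, and 2 did with the scheme as a covariate, 8 with array weights, 5 in one fit over regions, 5 with the replicate block and 0 to 3 with a library left out. The interactions gave 0 genes, and 1 for duodenum against ileum (pseudocount 0.1, quantile scaling, 0 to 1 with a library left out), 1 for duodenum against colon (pseudocount 0.1, 0 to 1 with a library left out) and 1 for ileum against colon (replicate block, 0 to 2 with a library left out). The cause was not tested.

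Log2 differences that changed sign were, in the duodenum, Nr1i3 with quantile scaling (-0.015), array weights (-0.068) and voom (-0.114), Cyp2c55 with array weights (0.112) and in the 7-library table (0.46), and, with the scheme as a covariate, Cyp3a44 (0.169) and Abcb1a (0.00). In the ileum the scheme as a covariate gave Cyp3a11 0.80, Cyp3a13 -0.294, Cyp2c55 1.193, Abcb1a 0.214, Nr1i2 -0.07 and Nr1i3 0.641. Only 3xD_1 stands for treatment in these ileal values, set against the 3 Vehicle libraries. The other ileal 3xD libraries had no minusD library of the same naming scheme beside them. Array weights in the ileum gave Cyp3a44 -0.033, Cyp2c55 0.146, Nr1i2 -0.121 and Nr1i3 0.117. In the colon array weights gave Nr1i3 -0.15 and voom gave Cyp2c55 -0.006. With the scheme as a covariate the colon gave Cyp3a11 -0.194, Cyp3a13 -0.073, Cyp2c55 -0.511 and Abcb1a -0.109.

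With each library left out in turn, duodenal values ranged from 0.73 to 1.82 for Cyp3a11, 0.18 to 0.43 for Cyp3a13, -0.03 to 0.46 for Cyp3a25, -0.305 to 0.149 for Cyp3a44, -0.625 to 0.46 for Cyp2c55, -0.479 to 0.029 for Abcb1a, -0.474 to -0.255 for Abcg2, 0.25 to 0.63 for Nr1i2 and -0.065 to 0.127 for Nr1i3. Ileal ranges were -0.466 to 0.248 for Cyp3a11, -0.026 to 0.535 for Cyp3a25, 0.00 to 0.80 for Cyp3a44, -0.583 to 0.582 for Cyp2c55, -0.695 to 0.367 for Abcb1a, -0.109 to 0.16 for Nr1i2 and -0.25 to 0.222 for Nr1i3. Colonic ranges were -0.186 to 0.517 for Cyp3a11, -0.359 to 0.623 for Cyp2c55, -0.117 to 0.414 for Abcb1a and -0.088 to 0.225 for Nr1i3. For interactions they were -0.277 to 0.369 for Abcg2, duodenum against colon, and -0.685 to 0.088 for Cyp3a11, ileum against colon.

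Same-numbered columns of different regions deviated together at over 0.1 in 7 of 7 pairs for duodenum and ileum, 7 of 8 for duodenum and colon (lowest -0.05) and 6 of 7 for ileum and colon (lowest 0.047), and the number was used as a replicate block (correlation 0.294) only as an alternative. It called none of the 9 genes. No pairing of 3xD with minusD libraries was possible, because the column numbers are in no label. Planned tests of regional levels were not run. Some colonic values rest on few recovered reads, with 3 to 79 per library for Cyp3a44 and 14 to 173 for Cyp3a11. Summed recovered reads went with the naming schemes in the duodenum and colon, and reads per FPKM of Cyp3a11 did so in the ileum. The part of read depth in the differences was not tested.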
